A study of Mus musculus with 2 samples.

Results

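The 10 genes described here, Mfn1, Mfn2, Opa1, Dnm1l, Fis1, Mff, Immt, Chchd3, Phb and Phb2, encode core proteins that fuse, divide and fold mitochondria. They were chosen by name, with earlier results of these data known, and all 10 were found among the 43346 mouse genes of both gene tables. The study sequenced heart RNA from newborn mice of strain B6NCrl at postnatal age 0 days, with no genetic change and no treatment named in the labels. Each of the 2 libraries began with 13 pg of total RNA longer than 200 nucleotides, the amount assigned to 1 cell-equivalent, and was made with the Smart-seq protocol, in which full-length cDNA is amplified before sequencing. Although the series is titled as single-cell work, the input was a small amount of RNA from a whole heart, from pup 1 for replicate 1 and from pup 3 for replicate 2. The labels give both pups the same donor identifier and do not record sex.

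Mitochondria in many cells join and divide continually, and the balance of both processes sets their shape. The mitofusins Mfn1 and Mfn2 tether and fuse outer membranes, and Opa1 fuses inner membranes, all by hydrolysing GTP. The GTPase encoded by Dnm1l, usually called Drp1, is drawn from the cytosol by outer-membrane proteins such as Mff and Fis1 and constricts the organelle. Immt (mitofilin, Mic60) and Chchd3 (Mic19) belong to MICOS, the complex at the necks of cristae, the inner-membrane folds that hold the respiratory chain, while Phb and Phb2 form prohibitin rings in the same membrane. Heart muscle is rich in mitochondria, and loss of either fusion or fission is known to impair it.

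Alternative coding exons of 4 members are shown first. These 7 were picked with their shares known, because the 2 libraries differed widely at most of them and matched closely at 1. They therefore do not stand for exon use over the 10 genes. Among exons not printed, some matched closely, such as the Immt 15-base exon (98.3% and 97.0%). Others did not, such as the Mff 33-base exon (0% and 13.3%). Each printed exon is written 5′ to 3′ on the strand of the gene as GENCODE M21 transcripts hold it, with the alternative exon in capitals and 10 bases of each neighbouring exon in lower case. Coordinates are those of mm10. In Dnm1l, on the minus strand, the 39-base exon lies at chr16:16342697-16342735, the 78-base exon at chr16:16318764-16318841 and the 33-base exon at chr16:16318445-16318477. Opa1, on the plus strand, has a 54-base exon at chr16:29588823-29588876 and a 111-base exon at chr16:29597586-29597696. On the plus strand too, Mff has a 60-base exon at chr1:82747083-82747142 and Immt a 138-base exon at chr6:71852730-71852867. All 7 exons are coding in the models that carry them, and all have a length divisible by 3, so that each adds or removes residues without shifting the reading frame.
Dnm1l 39-base exon: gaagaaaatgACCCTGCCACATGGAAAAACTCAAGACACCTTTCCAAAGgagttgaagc
Dnm1l 78-base exon: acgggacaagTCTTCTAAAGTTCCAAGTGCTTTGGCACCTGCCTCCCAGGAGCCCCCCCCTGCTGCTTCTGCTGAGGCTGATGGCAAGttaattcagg
Dnm1l 33-base exon: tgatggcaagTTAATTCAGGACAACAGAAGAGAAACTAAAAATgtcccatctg
Opa1 54-base exon: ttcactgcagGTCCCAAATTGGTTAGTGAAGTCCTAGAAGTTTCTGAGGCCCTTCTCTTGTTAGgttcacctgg
Opa1 111-base exon: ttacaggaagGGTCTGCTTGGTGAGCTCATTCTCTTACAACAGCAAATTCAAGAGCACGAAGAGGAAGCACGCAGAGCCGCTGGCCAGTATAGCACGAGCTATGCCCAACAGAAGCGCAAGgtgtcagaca
Mff 60-base exon: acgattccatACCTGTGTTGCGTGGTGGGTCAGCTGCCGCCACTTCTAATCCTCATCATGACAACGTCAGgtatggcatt
Immt 138-base exon: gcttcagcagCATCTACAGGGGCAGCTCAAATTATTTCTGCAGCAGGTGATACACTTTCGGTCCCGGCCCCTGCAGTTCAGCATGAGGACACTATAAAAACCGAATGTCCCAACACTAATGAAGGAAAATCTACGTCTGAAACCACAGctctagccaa

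Replicate 1 held 40648662 expected counts and replicate 2 held 33173354. Spike-in RNAs took 2.40% and 1.27% of them. Levels below are TPM (transcripts per 1000000), a unit corrected for transcript length and rescaled here over mouse genes. The libraries were not copies of each other: their counts differed with a chi-square of 824 per gene over 11245 genes. A gene is called read where each library gave it at least 1 TPM. Cardiomyocyte markers were read for 6 of 6 genes, led by Actc1 at 13940 and 23510 TPM, with a summed level of 37612 and 54004 TPM. Other cells of the heart were present as well: fibroblast markers were read for 4 of 4 genes (summed 756 and 587 TPM, led by Col3a1), endothelial markers for 4 of 4 (465 and 365 TPM, led by Egfl7) and smooth muscle and pericyte markers for 4 of 4 (57.3 and 74.8 TPM). Macrophage markers were read for 2 of 4 genes, with Cd68 at 0 counts in each library, and red cell markers for 4 of 5 (5657 and 5564 TPM). Since this is whole-tissue RNA, fewer cells of a type and less RNA per cell cannot be told apart, and the part of cell makeup in the values below was not tested. A difference between the libraries joins the heart, the RNA aliquot and the amplification, which cannot be told apart with 1 library of each. With 1 group of 2 libraries there was no comparison between conditions and no test, and each mean ± SD below is over n = 2.

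All 10 genes were read in both libraries, as were 28.4% of 21474 protein-coding genes. Their expected counts ran from 2812 for Mff in replicate 1 to 52809 for Immt in replicate 1, far above the floor of 3 counts. By mean level they stood between the 88.8th percentile of protein-coding genes (Opa1) and the 99.0th (Immt), with a median of 97.5. Together they held 0.253% of TPM in replicate 1 and 0.232% in replicate 2. The cristae genes were the most abundant group, with 1593 and 1450 TPM over 4 genes. The 3 fission genes summed to 673 and 575 TPM and the 3 fusion genes to 268 and 292 TPM. That order of fission and fusion holds per length: by reads, without correction for length, the fusion genes took more, with 0.0884% and 0.0797% of CPM (counts per 1000000) against 0.0599% and 0.0543% for the fission genes. Finer groups differed more between the libraries, and not all in the same direction. The 2 MICOS genes summed to 1024 and 750 TPM (1.37-fold), the 2 prohibitins to 569 and 700 TPM (1.23-fold) and the 2 mitofusins to 216 and 257 TPM (1.19-fold), while Opa1 alone was at 51.3 and 34.6 TPM.

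**Figure D1:**
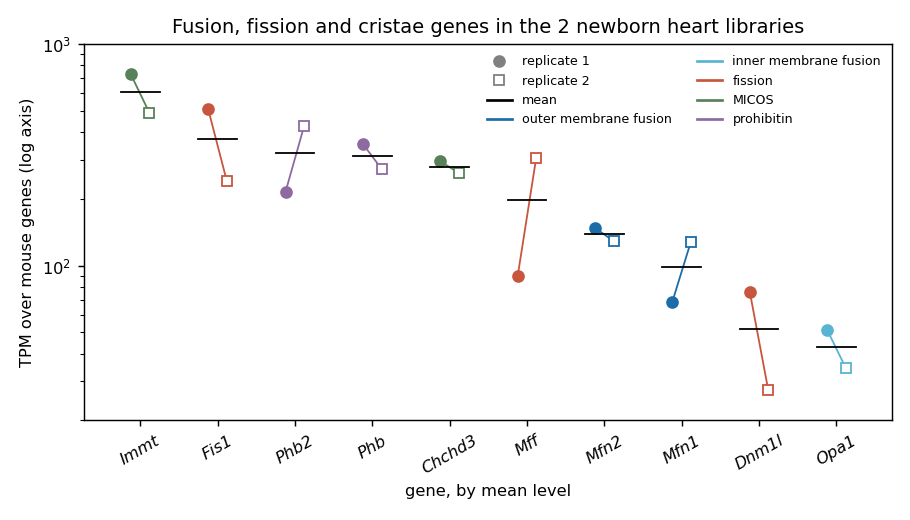
Level of each gene in TPM (log axis) in replicate 1 (filled circles) and replicate 2 (open squares), ordered by mean (black bars) and coloured by role. Immt was highest in both libraries at 728 and 488 TPM, while Opa1 and Dnm1l had the lowest means. The 3 fission genes differed most in fold between the libraries, with Phb2 (1.98-fold) close behind Fis1 (2.11-fold).

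From highest to lowest mean level the order was Immt, Fis1, Phb2, Phb, Chchd3, Mff, Mfn2, Mfn1, Dnm1l and Opa1, a range of 14.2-fold. Neighbours in this order could not be separated. A ratio between genes was described as beyond the spread when it had the same sign in both libraries and its mean passed 2 times the SD expected from genes of the same levels. By that rule 0 of the 9 neighbouring pairs were apart, against 15 of all 45 pairs. Neighbours were ordered by the same levels, so small gaps between them were built in. The share passing among pairs of other genes was not computed. Those 15 mostly set the low end against the rest: Opa1 was in 6 of them, below Immt, Fis1, Phb2, Phb, Chchd3 and Mff, and Dnm1l in 5, below the first 5 of these. Immt stood above Mff, Mfn2, Mfn1, Dnm1l and Opa1. The remaining pair was Fis1 above Mfn2. The 15 pairs were judged in TPM only, and some orders depend on the correction for length. In CPM Fis1 was below Mfn2 in both libraries, at 284 and 138 against 496 and 440. Dnm1l, at 245 and 90.2 CPM, was above Phb2 (223 and 432) in replicate 1 and below it in replicate 2. Since the genes share their library, these ratios are descriptions.

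Outer-membrane fusion was represented by both mitofusins. Mfn2 (chr4:147873599-147904704, minus strand), which also ties mitochondria to the endoplasmic reticulum, was at 148 and 129 TPM in replicates 1 and 2 (138 ± 13.1). Mfn1 (chr3:32529465-32579239, plus strand), the close relative that acts chiefly in tethering and fusion, was at 68.7 and 128 TPM (98.5 ± 42.1). Mfn2 was thus 2.15-fold above Mfn1 in replicate 1 and level with it, at 1.01-fold, in replicate 2. On the log2 scale the ratio was 0.55 ± 0.77 against a threshold of 1.94, so no order of the mitofusins was resolved. Mfn1 differed more in TPM than in its reads: its log2 difference, replicate 2 over replicate 1, was 0.89 in TPM and 0.34 in CPM, as its estimated effective length was 3460 bases in replicate 1 and 2292 in replicate 2. The coding sequences of the main mitofusin transcripts were 64.9% identical with a longest shared run of 21 bases.

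Opa1 (chr16:29579334-29654884, plus strand) was at 51.3 and 34.6 TPM (42.9 ± 11.8), the lowest mean of the set, from 7703 and 3622 expected counts. It lay below Mfn2 in both libraries, by 1.51 and 1.87 log2 units. The mean ratio of -1.69 did not reach its threshold of 1.94 in TPM, and in CPM the mean of -1.67 was beyond the spread. Against Mfn1 the log2 ratio was -0.41 and -1.86, also inside the threshold of 2.42.

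The 3 fission genes were the only ones of the 10 that differed over 2-fold between the libraries, and they did so in opposite directions. Over 2-fold apart were 42.6% of all genes at 30 to 100 TPM, 24.3% at 100 to 300 and 14.1% at 300 to 1000. Fis1 was just past the limit at 2.11-fold and Phb2 just inside it at 1.98-fold. The count is therefore not read as a trait of fission genes. Fis1 (chr5:136953275-136966234, plus strand), a small tail-anchored outer-membrane protein, was at 507 and 241 TPM in replicates 1 and 2 (374 ± 189). Mff (chr1:82724890-82752394, plus strand), the tail-anchored receptor for Drp1, was at 89.5 and 307 TPM (198 ± 153). Dnm1l (chr16:16312230-16358959, minus strand), the GTPase itself, was at 76.3 and 27.3 TPM (51.8 ± 34.6). Fis1 and Dnm1l were therefore high in replicate 1, and Mff was high in replicate 2. Differences on the log2(TPM + 1) scale were -1.07 for Fis1, 1.76 for Mff and -1.45 for Dnm1l, and CPM gave -1.03, 2.13 and -1.43.

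The receptors stood in opposite order in the libraries. Fis1 was 5.67-fold above Mff in replicate 1, whereas Mff was 1.27-fold above Fis1 in replicate 2, so their mean log2 ratio of -1.07 ± 2.01 carried no direction. Dnm1l was the scarcer partner of Fis1 in both hearts, with Fis1 6.65-fold and 8.80-fold higher. That log2 ratio, -2.90 ± 0.26, was beyond the spread (threshold 1.91) in TPM. Per read, without correction for the longer Dnm1l transcript, it was only -0.41 in CPM and inside the spread. Dnm1l against Mff gave log2 ratios of -0.23 and -3.44, and Opa1 against Dnm1l gave -0.56 and 0.33, so the balance of the inner-membrane fusion gene and the fission GTPase had no fixed sign.

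In MICOS, the scaffold gene Immt (chr6:71831331-71877388, plus strand) was at 728 and 488 TPM (608 ± 170) and ranked 188th and 263rd of protein-coding genes. Chchd3 (chr6:32790976-33060260, minus strand), the subunit that binds Immt and links it to the outer membrane, was at 296 and 261 TPM (278 ± 24.1). Immt exceeded Chchd3 in both libraries, by 2.46-fold and 1.87-fold, but the mean log2 ratio of 1.10 ± 0.28 stayed under its threshold of 1.26. In CPM the mean was 1.62 and beyond the spread. Immt over Opa1, a pair of genes whose proteins both shape cristae necks, was the steadiest ratio of those described: 14.2-fold and 14.1-fold, or 3.79 ± 0.02 on the log2 scale against a threshold of 1.91.

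The prohibitins form rings from both proteins, and their RNAs had similar means with opposite order. Phb (chr11:95666957-95680773, plus strand) was at 353 and 273 TPM (313 ± 56.6), and Phb2 (chr6:124712336-124716950, plus strand) at 216 and 427 TPM (321 ± 149). The log2 ratio of Phb2 over Phb was -0.71 in replicate 1 and 0.64 in replicate 2, a mean of -0.03 ± 0.96. Phb values, and so the order of Phb and Phb2, rest on a division of reads with a copy. The transcribed processed pseudogene Gm7666 (chr15:6653923-6654741) is 99.9% identical to Phb over its whole length. It was given 2287 and 2859 expected counts (98.4 and 145 TPM), beside 14855 and 8788 counts for Phb. The order with these reads given to Phb was not tested. The tables put the posterior SD of the Phb counts at 115 and 103. A transcript of the coding gene Fyb was 100% identical to Phb over 59.6% of its length, and Fyb had 293 and 0 counts. Gm7666 lies within the span of Fyb (chr15:6522853-6663313), and whether both matches are the same stretch was not tested. A further 4 processed pseudogene copies of Phb were at 0 counts in both libraries. The coding sequences of Phb and Phb2 were 56.4% identical with no shared run above 11 bases.

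**Figure D2:**
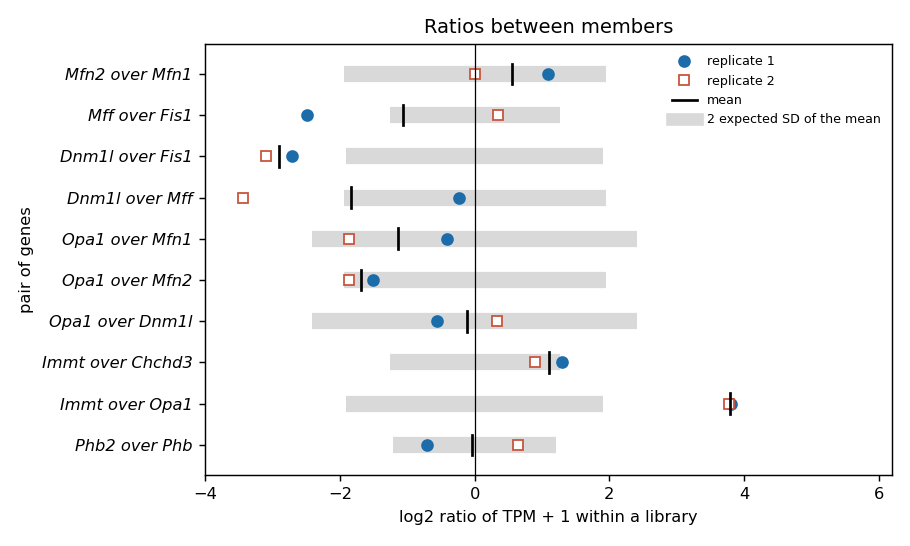
Log2 ratio of TPM + 1 for 10 pairs of genes in replicate 1 (filled circles) and replicate 2 (open squares), with the mean (black bars) and the range of 2 expected SD around 0 (grey). Only Dnm1l over Fis1 and Immt over Opa1 lie outside the grey range with the same sign in both libraries.

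Of the 10 ratios, 7 had the same sign in both libraries and 2 passed the rule. No share over pairs of other genes was computed to set beside these counts.

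Between the libraries, 3 of the 10 genes were over 2-fold apart (Mff higher in replicate 2, Fis1 and Dnm1l lower). Over the 8266 genes whose mean reached 5 TPM, the share past 2-fold was 54.6%, made of 27.7% higher and 26.9% lower in replicate 2. Agreement improves with level, so the nearer backgrounds are 42.6% of genes at 30 to 100 TPM, where Dnm1l, Opa1 and Mfn1 lie, 24.3% at 100 to 300 TPM and 14.1% at 300 to 1000 TPM. The median absolute log2 difference was 0.73 for the 10 genes and 0.71 for the 3199 genes at 30 to 1000 TPM. Of the 7 genes within 2-fold, Phb2 was just inside at a log2 difference of 0.98, and Chchd3 and Mfn2 were closest at -0.18 and -0.19. In all, 3 genes were higher and 7 lower in replicate 2, with a median of -0.28 against 0.01 for the 8266 genes whose mean reached 5 TPM. The SD of this difference over genes of like level was 1.71 at 30 to 100 TPM, 0.93 at 100 to 300 TPM and 0.85 at 300 to 1000 TPM. Differences of Mff, Fis1 and Phb2 passed 1 such SD, and 0 of the 10 passed 2. The share of all genes past these limits was not computed, so the counts are not read as a trait of the 10 genes.

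**Figure D3:**
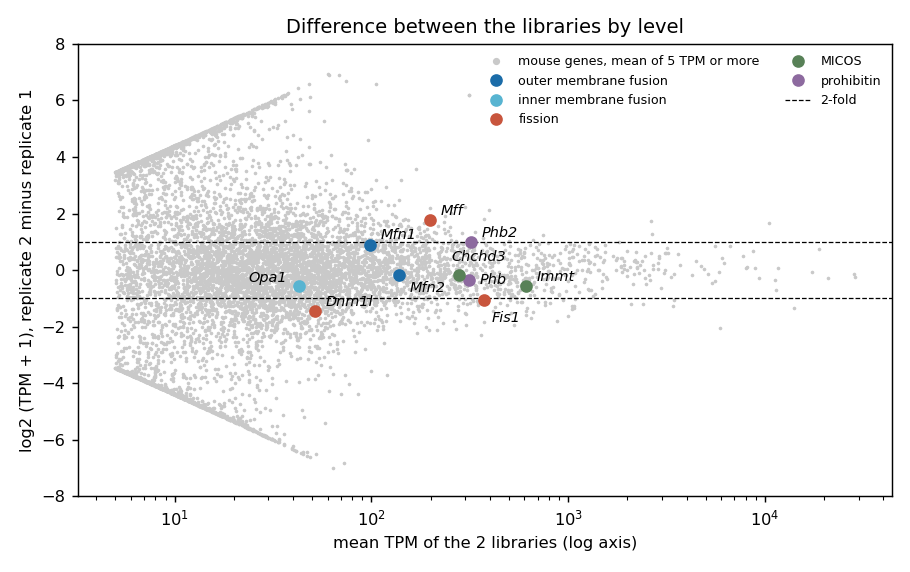
Log2 difference between the libraries (replicate 2 minus replicate 1) against mean TPM (log axis) for genes whose mean reached 5 TPM (grey) and the 10 genes (coloured by role), with dashed lines at 2-fold. Mff lies above the upper line, Fis1 and Dnm1l lie below the lower one, and the cloud of all genes narrows to the right.

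Transcript shares were steadier in choice than in size. The leading transcript, the model with the highest share of its gene's TPM, was the same in both libraries for 9 of the 10 genes, where 76.4% of 2394 genes with several transcripts and a mean of 30 to 1000 TPM kept theirs. The leading model of Fis1, Fis1-201, held 99.9% and 100% of its gene. Phb2-201 (92.3% and 98.3%), Chchd3-201 (90.7% and 99.3%) and Mfn2-201 (89.6% and 89.3%) also took nearly all of theirs. The other 6 genes were divided among several models, whose shares are estimates from reads that the models partly share.

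Dnm1l was the exception. Dnm1l-201, which lacks all 3 exons printed above, held 56.0% in replicate 1 and 39.0% in replicate 2. Dnm1l-202 carries the 39-base exon, which adds residues within the GTPase domain. It held 23.7% in replicate 1 and led with 60.0% in replicate 2. The 78-base and 33-base exons, which lie together in the variable region of the protein, are carried by Dnm1l-203 with 20.4% in replicate 1 and 1.01% in replicate 2. By expected counts the shares of the 39-base exon were 23.8% and 60.2%. Models of this gene differ between annotation releases: 3 Dnm1l transcripts have other lengths in GENCODE M21 than in the tables, the only such cases among 81 transcripts of the 10 genes.

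In Opa1 the 111-base exon, which lies ahead of the GTPase domain, had the closest shares in the hearts of the 7 exons printed above. Models with it held 47.5% of the TPM of models spanning that place in replicate 1 and 50.8% in replicate 2, or 31.2% and 31.4% of expected counts. The 54-base exon was in 0.590% and 11.8% of TPM, and 0.393% and 3.63% of counts. Opa1-206 led with 51.9% and 36.4%, followed by Opa1-207, an incomplete model (its annotated ends were not all found) with 47.4% and 32.5%. A retained-intron model, Opa1-202, had 0% in replicate 1 and 22.0% in replicate 2.

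For Mff the 60-base exon was in 0% of the spanning TPM in replicate 1 and 58.5% in replicate 2. Mff-209, the leading model, lacks it and held 62.8% and 35.9% of the gene, while Mff-201, the main model with it, had 0% and 22.6%. In expected counts Mff-201 was at 0 in replicate 1 (posterior SD 7.90) and at 3052 in replicate 2 (posterior SD 182). The short noncoding model Mff-210 held 37.1% and 10.5%. An antisense gene, C430014B12Rik, shares 195 exon bases with Mff and had 71.6 and 1.26 expected counts, few beside the 2812 and 10298 of Mff. Mff differed most of the 10 genes in level between the libraries, and its exon differed most of the 7 printed above.

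Immt-205 led its gene with 68.8% and 44.5%. The 138-base exon was in 14.3% and 43.8% of the spanning TPM, and in 13.0% and 30.9% of counts. It was carried by Immt-201 and by Immt-204, the latter an incomplete model at 3.98% and 28.6% of the gene's TPM. By TPM Immt-201 was above Immt-204 in replicate 1, at 9.67%, and below it in replicate 2. By expected counts Immt-201 was above Immt-204 in both libraries, with 11.3% and 17.4% of the gene against 1.39% and 12.3%. For Phb, Phb-204 held 63.0% and 51.4%, and the incomplete Phb-201 held 36.8% and 46.8%. By expected counts Phb-204 held 82.2% and 74.5%, and Phb-201 only 17.7% and 24.9%. Mfn1-201 held 70.0% in replicate 1 and 27.3% in replicate 2 by TPM, or 90.2% and 53.1% by expected counts. The shorter models Mfn1-202 (10.6% and 25.6%), Mfn1-207 (0.12% and 14.7%), Mfn1-203 (0.17% and 12.6%) and Mfn1-210 (12.5% and 19.1%) held more of the gene's TPM in replicate 2, where its effective length was lower. Mfn1-210, a retained-intron model of 246 bases, had 40.6 and 98.7 expected counts, or 0.529% and 1.22% of the gene's counts.

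**Figure D4:**
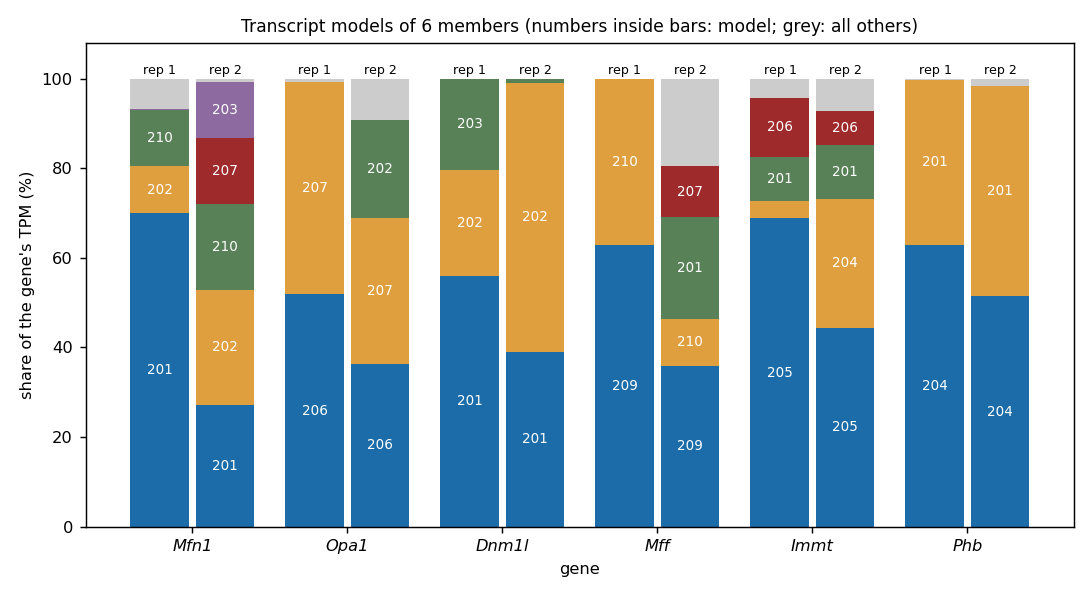
Share of each gene's TPM (percent, stacked from 0) held by its transcript models in replicate 1 and replicate 2 for the 6 genes divided among several models, with model numbers inside the bars and all other models in grey. Dnm1l-202 held 23.7% and 60.0%, Mff-201 held 0% and 22.6%, and Phb-204 held 63.0% and 51.4%.

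The 10 genes were next set beside 58 others that act on mitochondrial shape, in 5 lists. Of these, 42 were read in both libraries, 11 in 1 library and 5 in neither. The background for this count and for each list below is the 28.4% of 21474 protein-coding genes read in both. A mean of at least 5 TPM was reached by 50, of which 21 differed over 2-fold, 9 higher and 12 lower in replicate 2, and their median log2 difference was 0.08. Over all 8266 genes with such a mean, 54.6% differed over 2-fold, 27.7% higher and 26.9% lower in replicate 2. In 8 of the 58, under 3 counts were found in 1 library and 100 or more in the other. The share of all genes with such a pattern was not computed. It was seen outside the pathway too, in the markers Alas2 (0 and 639 counts) and Csf1r (931 and 1 counts).

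Of 13 regulators of fusion, 9 were read in both libraries. The highest were Stoml2, a prohibitin-related inner-membrane protein, at 79.3 and 117 TPM, the rhomboid protease gene Parl at 112 and 51.1 TPM, and Opa3 at 30.7 and 53.0 TPM. Oma1, the protease that cuts Opa1 under stress, was at 41.4 TPM in replicate 1 from 2427 counts and at 0 counts in replicate 2.

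Of 12 fission receptors and helpers, 6 were read in both libraries and 4 in neither. Mtfr1l (79.7 and 50.7 TPM), Mtfp1 (58.1 and 65.4 TPM) and the dynamin gene Dnm2 (51.5 and 36.3 TPM) led them. Mief2, another adaptor for Drp1, had 969 counts in replicate 1 and 0 in replicate 2. Mff and Fis1 thus had higher means than any of these 12 genes.

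For MICOS and its bridge to the outer membrane, 10 of 11 further genes were read in both libraries, and Mtx3 was under 1 TPM in each. Minos1, encoding the small subunit Mic10, was at 673 and 808 TPM, the gene for Mic13 (2410015M20Rik) at 200.5 and 383 TPM and Apoo at 192 and 313 TPM. Mtx2, an outer-membrane partner of the complex, was at 32.9 and 157 TPM, 4.78-fold higher in replicate 2.

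Among 13 genes of inner-membrane shape and cardiolipin, 11 were read in both libraries. Chchd2 (1172 and 1171 TPM), Atpif1, the ATP synthase inhibitor (1061 and 1345 TPM), and Atp5k, a subunit of the ATP synthase dimer (884 and 1204 TPM), lay above every one of the 10 core genes. Letm1, an inner-membrane ion exchange protein, had 0 counts in replicate 1 and 4076 in replicate 2.

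For movement and mitophagy, 6 of 9 genes were read in both. The mitophagy receptors Bnip3l (234 and 354 TPM), Bnip3 (203 and 184 TPM) and Fkbp8 (88.8 and 171 TPM) led. Pink1, the kinase that marks damaged mitochondria, was at 71.8 TPM in replicate 1 from 3713 counts and had 1 count in replicate 2.

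**Figure D5:**
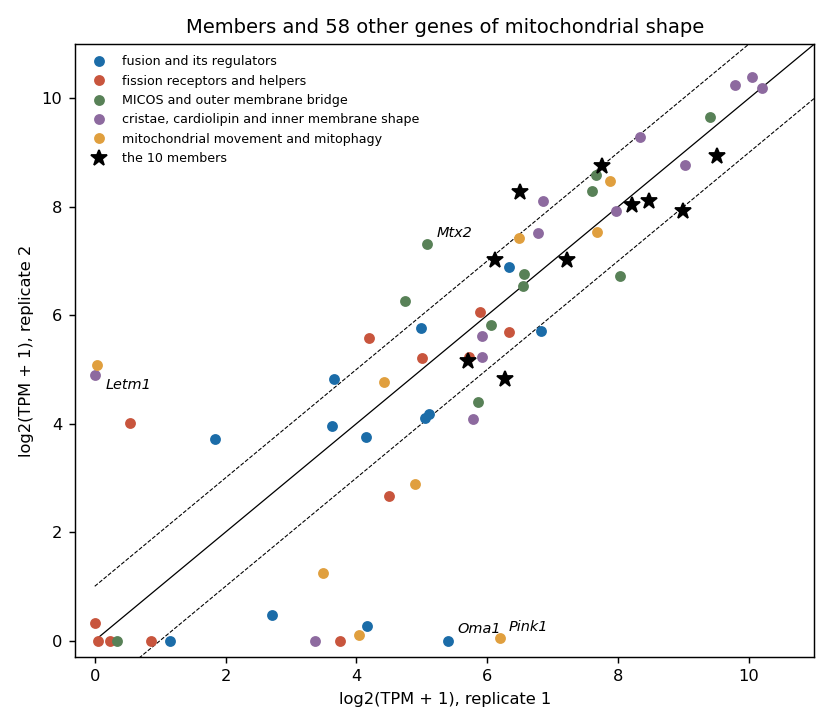
Level as log2(TPM + 1) in replicate 1 (x axis) and replicate 2 (y axis) for the 10 genes (stars) and 58 others of mitochondrial shape (circles by list), with the line of equality and dashed lines at 2-fold. Of the stars, 7 lie within the dashed lines and 3 (Mff, Dnm1l and Fis1) outside them, and Oma1 (2427 and 0 counts), Pink1 (3713 and 1 counts) and Letm1 (0 and 4076 counts) lie along the axes.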

How the data were processed

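Gene and transcript levels were measured in 2 newborn mouse heart libraries of 1 group. Expected counts and TPM per gene and transcript were deposited by the authors per the file headers, with replicates kept apart. The posterior SD of a count, treated as a score, and the percent of each gene's TPM held by a transcript come from the deposited tables per the file headers. The submitters' processing notes name mm10 and GENCODE M4, while aligner, quantifier and strand are each not given in the sources used here. Reads of antisense genes therefore cannot be told apart.

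TPM was rescaled to 1000000 over the 43346 mouse genes, which excludes spike-ins. GENCODE M21 supplied names (42462 genes matched), positions, exons and sequences. Differences between libraries are log2 ratios of TPM + 1, called over 2-fold where the mean is at least 5 TPM; a pseudocount understates changes of low genes. The spread per library is the SD of that ratio over genes of like level, divided by the square root of 2. Copies of a gene were transcripts that minimap2 (version 2.31-r1302) aligned to it with identity of 90% or more across at least 50% of their length, and coding sequences were aligned with Biopython 1.88. The spread by level and the fold calls were tested on simulated counts, made with a smaller spread per library than these data show. The rule for ratios and the transcript and exon shares were not tested so.

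Named were the 10 genes, transcripts holding 10 percent of a gene in either library, the leading marker of a cell type and, per pathway list, the 3 highest genes and the 1 with the largest difference. The members and lists were chosen with earlier results of these data known. The labels name separate pups, so the SD covers heart, aliquot and amplification together. Protein sequences were not analysed here. The alternatives used a pseudocount of 0.1, CPM, posterior mean TPM, other filters, scaling by edgeR 4.0.16 or DESeq2 1.42.0 factors on rounded expected counts, and 1 library alone. Expected counts of shared reads are estimates, and their number covers counting error only.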

Additional observations from a re-analysis of the deposited data

How the results depend on the processing

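The 3 genes over 2-fold apart stayed 3 under each of the 6 alternatives run, and all 10 genes were read under each alternative. Some of these outcomes were fixed beforehand. Leaving out the filter of 5 TPM could not change the first count, as the lowest mean was 42.9 TPM (Opa1). A read limit of 5 TPM could not change the second, as the lowest value was 27.3 TPM (Dnm1l in replicate 2). The number of the 10 planned ratios beyond the spread was 2, and became 4 with 2 SD of the libraries as the limit (adding Opa1 over Mfn2 and Immt over Chchd3) and 4 with the median absolute deviation of the level bins (adding Dnm1l over Mff and Opa1 over Mfn2). In CPM it was 3, without Dnm1l over Fis1 and with Opa1 over Mfn2 and Immt over Chchd3. The summed share was 0.243% of TPM and 0.342% of CPM, which is not corrected for length, and in CPM the fusion genes (0.0840%) passed the fission genes (0.0571%), the opposite of their order in TPM. By expected counts the mean share of Phb-204 was 78.4% in place of 57.2%, and that of Opa1-206 was 63.3% in place of 44.1%. The median percentile was 97.5, and from 1 library alone it ran from 96.7 without replicate 2 to 97.6 without replicate 1. The count of shared leading transcripts could not be given from 1 library. No paired analysis was possible because there is 1 group. The SD of the difference over genes of like level, 1.71 at 30 to 100 TPM and 0.85 at 300 to 1000 TPM on the log2 scale, limits what 2 libraries can show.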
